A study of Rattus norvegicus with 3 samples.

Results

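Amelogenin (Amelx) is the main protein of the forming enamel matrix, and its RNA was followed across 3 stages of the rat enamel organ. The gene is 1 of 16516 in the authors' deposited comparison table. Its 4 listed transcripts, Amelx-202, Amelx-203, Amelx-204 and Amelx-205, are 4 of 9949 in the deposited isoform tables, which cover genes with more than 1 transcript. Members were taken by name alone, as the gene called Amelx and every transcript assigned to it. RNA came from cells of the cervical loop, secretory-stage ameloblasts and maturation-stage ameloblasts dissected from 5 Wistar Hannover rats; the labels name no treatment and no ages. The labels name dissection alone as the way the 3 populations were separated. Each stage is deposited as 1 mean per gene or transcript, so that the spread between rats enters only through the authors' p-values and no SD can stand beside a mean. In such bulk samples, fewer cells of a type and less RNA per cell cannot be told apart.

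Ameloblasts arise from epithelial progenitors of the cervical loop, at the growing end of the rodent incisor. In the secretory stage they release amelogenin with ameloblastin and enamelin, and the protease MMP20 begins to cut these proteins. In the maturation stage matrix is degraded further and taken away while mineral fills the space. The amelogenin pre-mRNA is spliced in several ways, and one short product, the leucine-rich amelogenin peptide, lacks most of the central part of the protein. RefSeq lists 7 curated rat transcripts of Amelx, on chromosome X in the build GRCr8. The Ensembl-style names of the deposited tables are not matched to these, so no exon make-up or protein is given here to Amelx-202, Amelx-203, Amelx-204 or Amelx-205.

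The sequence around the start of Amelx is shown because Amelx and Enam moved almost alike across the stages, as described further on, and the windows of Ambn and Mmp20, which were also higher in secretory than in cervical loop cells, stand beside them. The sequences are RefSeq promoter windows of build GRCr8, 300 bases long with 250 of them before the annotated start, written on the strand of the gene. Capitals mark the motif CCAAT, its longer form CCAATCA and the box TATAAA on either strand. The longer form reads TGATTGG when it lies on the opposite strand, and each match of it holds the shorter motif. The motifs were chosen after the sequences had been read.
Amelx, chrX:28648553-28648852, + strand: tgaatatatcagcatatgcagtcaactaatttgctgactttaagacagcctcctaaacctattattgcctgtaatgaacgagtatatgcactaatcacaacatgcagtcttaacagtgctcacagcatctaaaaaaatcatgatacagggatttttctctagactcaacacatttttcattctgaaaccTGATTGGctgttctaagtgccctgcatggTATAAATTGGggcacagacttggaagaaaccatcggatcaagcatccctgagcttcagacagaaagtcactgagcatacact
Enam, chr14:19865427-19865726, - strand: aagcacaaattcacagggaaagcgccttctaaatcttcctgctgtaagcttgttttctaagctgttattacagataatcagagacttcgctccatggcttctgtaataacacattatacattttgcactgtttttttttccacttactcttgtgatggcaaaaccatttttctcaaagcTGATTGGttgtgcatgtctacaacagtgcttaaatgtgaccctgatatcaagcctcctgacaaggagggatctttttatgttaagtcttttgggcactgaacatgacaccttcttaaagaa
Ambn, chr14:19898373-19898672, - strand: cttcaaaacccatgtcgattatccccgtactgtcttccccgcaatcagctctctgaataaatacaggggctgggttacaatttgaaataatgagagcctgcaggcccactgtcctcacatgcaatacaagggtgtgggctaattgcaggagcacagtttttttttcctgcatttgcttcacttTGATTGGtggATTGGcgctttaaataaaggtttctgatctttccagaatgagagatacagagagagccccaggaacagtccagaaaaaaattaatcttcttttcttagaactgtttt
Mmp20, chr8:13074029-13074328, + strand: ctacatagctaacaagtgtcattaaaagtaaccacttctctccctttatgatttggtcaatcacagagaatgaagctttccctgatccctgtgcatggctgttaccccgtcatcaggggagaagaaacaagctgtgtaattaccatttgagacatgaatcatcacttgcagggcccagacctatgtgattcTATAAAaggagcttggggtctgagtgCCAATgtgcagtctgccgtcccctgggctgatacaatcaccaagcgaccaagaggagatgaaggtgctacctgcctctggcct

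The Amelx window held CCAATCA in reverse, 61 to 55 bases before the start, and TATAAA, 32 to 27 bases before it, with a further reversed CCAAT, 27 to 23 bases before the start, that overlaps the box by 1 base. Enam, for enamelin, held CCAATCA in reverse 71 to 65 bases before its start, and Ambn, for ameloblastin, 67 to 61 bases before its start. The window of Mmp20 held no CCAATCA, but a TATAAA and a CCAAT. Of all 33469 promoter windows of the same length, 7.06% held CCAATCA on either strand, 37.5% held CCAAT and 14.2% held TATAAA. Between 100 and 41 bases before the start, an interval that holds the matches of Amelx, Enam and Ambn, CCAATCA stood in 2.39% of all windows. That share is a description and no test. Among the 10 genes nearest to Amelx in pattern, 8 had a window, and of these 1, Enam, held CCAATCA and 4 held CCAAT. As background, CCAAT is the core of the site of the factor NF-Y, which together with C/EBP alpha is known to act on the amelogenin promoter in mouse. A match of letters is a description and not a site.

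Amelx RNA was high in secretory ameloblasts and far lower on either side of that stage. The authors' means were 1152 in the cervical loop, 37121 in the secretory stage and 217 in maturation. Amelx alone made up 0.264% of the summed means of all genes in the cervical loop, 6.06% in the secretory stage and 0.0447% in maturation. Those sums were 436717, 612568 and 484343 in the same order. The means are thus not on a common total, and folds between stages differ from those of the percentages. The unit of the means is not stated in the headers, and no scaling by gene length is stated, so Amelx is compared here with itself across stages.

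Secretory ameloblasts held 32.2-fold more Amelx than cervical loop cells in the authors' deposited table (p = 0.000271, FDR = 0.00233, where FDR is the false discovery rate over all genes and 0.05 the threshold). In that comparison 41.8% of all genes passed, 16.5% as higher and 25.2% as lower. Maturation ameloblasts held 171-fold less than secretory ones in the authors' deposited table (p = 6.54e-05, FDR = 0.000897), a comparison in which 42.9% of genes passed and 21.1% passed as lower. Between maturation and cervical loop cells the means were 217 and 1152, and the difference did not pass (5.32-fold lower, p = 0.13, FDR = 0.177 in the authors' deposited table), although 57.8% of genes passed there, 33.7% as lower. The order of the means was thus secretory, cervical loop and maturation, and the last pair did not differ beyond the spread that the authors' test saw. Over all genes with a mean above 0.1 in both stages, secretory cells lay at a median log2 ratio of -0.14 to the cervical loop, where Amelx lay at 5.01. Maturation cells lay at a median of 0.01 to secretory cells (Amelx at -7.42) and of -0.12 to the cervical loop (Amelx at -2.41).

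**Figure D1:**
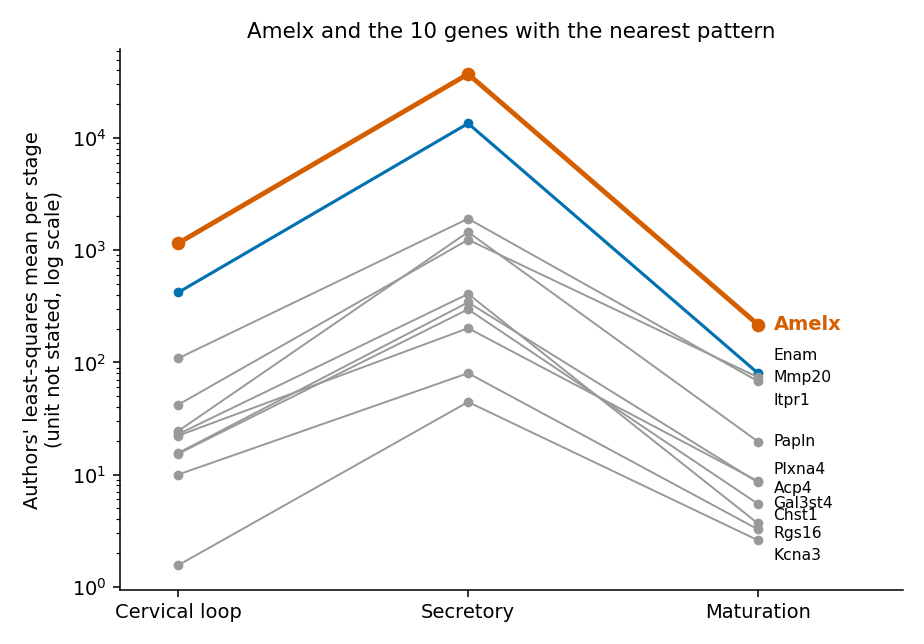
Authors' least-squares mean per stage on a log axis (unit not stated) for Amelx (orange), Enam (blue) and the other 9 of the 10 genes nearest to Amelx in pattern (grey). Amelx stands at 1152, 37121 and 217 in the cervical loop, secretory and maturation stages, and the line of Enam runs parallel to it.

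The gene whose pattern was most like that of Amelx was Enam. Likeness was measured as the distance between 2 genes in 2 log2 ratios, secretory over cervical loop and maturation over secretory, among 12462 genes with a mean of at least 1 in every stage. It covers 3 stage means and is a description. Enam had means of 420, 13468 and 80.0 in the cervical loop, secretory and maturation stages and lay 0.0265 from Amelx, where the median distance of all genes was 9.05. Next came Chst1, a sulfotransferase of carbohydrate chains, at 1.06, with means of 22.9, 407 and 3.67 in the same stage order. Papln, for an extracellular matrix protein, was the third, and Gal3st4, a galactose sulfotransferase, followed at 1.81.

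The other genes of the 10 were Acp4, an acid phosphatase whose human gene is mutated in enamel defects, Itpr1, a calcium release channel of the endoplasmic reticulum, Kcna3, a potassium channel, Mmp20, Plxna4, a semaphorin receptor, and Rgs16, a regulator of G protein signalling. Their distances ran up to 3.44, and the next gene, Relt, lay at 3.49. These ratios chose the genes and together fix the ratio of maturation to cervical loop cells, so the direction in every comparison is no finding. Of the 10, Chst1, Plxna4 and Rgs16 passed as lower in maturation than in cervical loop cells in the authors' deposited table (FDR = 0.00452, 0.0231 and 0.0144), and Kcna3 passed as higher (FDR = 0.024). Of all genes 57.8% passed there, 33.7% as lower and 24.1% as higher. With a floor of 10 in place of 1, 4 of the 10 remained among the nearest, Enam still first.

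**Figure D2:**
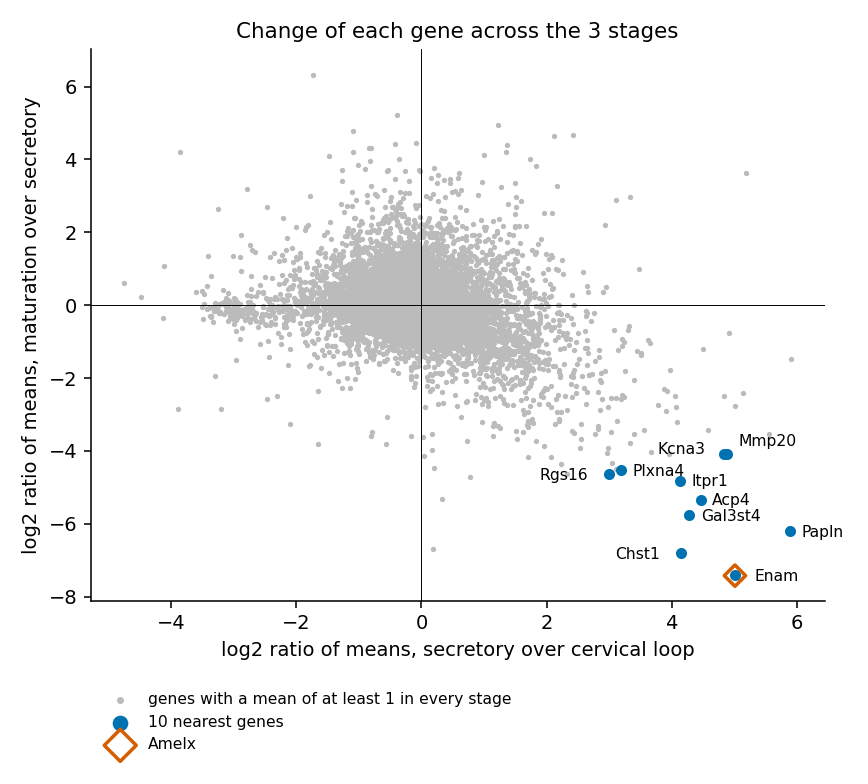
Log2 ratio of the authors' means, secretory over cervical loop (horizontal) and maturation over secretory (vertical), for 12462 genes with a mean of at least 1 in every stage. Amelx (diamond) lies at 5.01 and -7.42, with Enam 0.0265 away and the other 9 nearest genes (blue) up to 3.44 away.

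The 4 transcripts of Amelx were all highest in the secretory stage. In the isoform tables that hold the maturation stage, Amelx-203 had means of 712, 26000 and 120 in the cervical loop, secretory and maturation stages. Amelx-205 had 164, 6400 and 91.1 in the same order. Every transcript had its lowest mean in maturation, and Amelx-205 lay below its means in the other stages by the smallest folds. Against the cervical loop, Amelx-203 and Amelx-205 did not pass (FDR = 0.122 and 0.922 in the authors' deposited table).

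Amelx-202 had 186, 3810 and 6.10 in the cervical loop, secretory and maturation stages. Amelx-204 had the lowest means, 17.4, 952 and 1.66 in that order. The 4 means added up to 1079, 37162 and 219, or 0.937, 1.00 and 1.01 times the gene-level means. The isoform tables and the gene table thus held nearly the same amount of Amelx RNA in every stage, when the values beside maturation were taken.

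The transcripts were lower in maturation than in secretory cells by unequal amounts. Amelx-202 was 625-fold lower (FDR = 1.43e-13) and Amelx-204 571-fold lower (FDR = 1.13e-13) in the authors' deposited table. Amelx-203 was 217-fold lower (FDR = 1.61e-11) and Amelx-205 70.4-fold lower (FDR = 2.58e-09) in the authors' deposited table. All 4 passed, where 17% of all transcripts passed in this comparison 9.1% as lower and 7.87% as higher. With 1 added to both means, Amelx-204 was 358-fold lower, since its mean in maturation was 1.66.

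The make-up of Amelx RNA differed between maturation and secretory cells. The authors' make-up test, run once for each gene, gave p = 1.64e-05 and FDR = 0.00302 in the authors' deposited table, the 22nd smallest of 4051 genes. In this test 1.8% of genes passed. Amelx-205 made up 41.6% of the summed transcript means in maturation, against 17.2% in secretory cells. Amelx-203 made up 54.8% in maturation and 70.0% in secretory cells. Amelx-202 made up 2.79% in maturation and 10.3% in secretory cells, and Amelx-204 made up 0.758% in maturation and 2.56% in secretory cells.

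The share of Amelx-205 was thus 24.4 percentage points higher in maturation than in secretory cells, and that of Amelx-203 15.1 points lower (-15.1 points). Among 5594 transcripts of genes with a summed level of at least 10 in both stages, the median absolute difference in share was 1.87 points, and 0.411% of transcripts had a larger one than Amelx-205. Set against Amelx-203, Amelx-205 stood at a ratio of 0.759 in maturation and 0.246 in secretory cells, while Amelx-202 stood at 0.0508 in maturation and 0.147 in secretory cells. The ratio of Amelx-204 to Amelx-202 was 0.0935 in the cervical loop, 0.250 in the secretory stage and 0.272 in maturation. Shares have no error of their own, since each rests on 1 mean per stage. How reads that fit more than 1 transcript were divided is not given in the sources used here, and reads were single-end and 75 bases long.

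**Figure D3:**
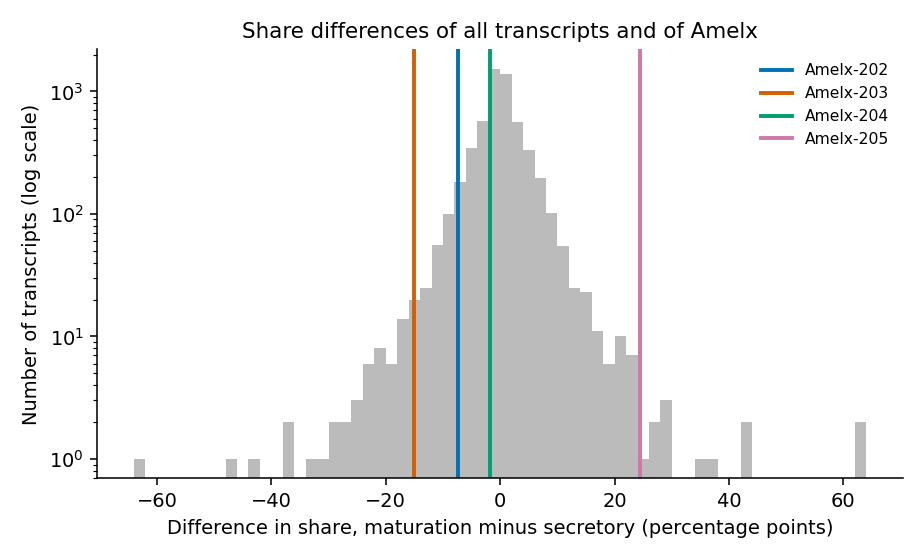
Number of transcripts (log axis) by difference in share of their gene's summed transcript means, maturation minus secretory, in percentage points, for 5594 transcripts of genes with a summed level of at least 10 in both stages. Coloured lines mark the 4 Amelx transcripts, of which Amelx-205 lies at 24.4 and Amelx-203 at -15.1 points.

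Among genes with at least 3 transcripts, those ranked next to Amelx in this test were Tnni1, a troponin of slow skeletal muscle, and RF02271 above it (FDR = 0.0026 for both), and Tpm3, a tropomyosin, and Npnt, a matrix protein of basement membranes, below it (FDR = 0.00379 and 0.00694), in the authors' deposited table. Tnni1 and Tpm3 encode proteins of actin filaments and muscle. They are named for their rank alone.

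Maturation against cervical loop cells gave a mixed picture. The gene as a whole did not pass in the gene test. In the separate test of transcripts, Amelx-202, at 6.10 in maturation and 186 in the cervical loop, was 30.5-fold lower in maturation (FDR = 0.00104 in the authors' deposited table). Amelx-204, at 1.66 in maturation and 17.4 in the cervical loop, was 10.5-fold lower (FDR = 0.00364 in the authors' deposited table; 6.92-fold with 1 added to both means). Amelx-203, at 120 in maturation and 712 in the cervical loop, did not pass (5.95-fold lower, FDR = 0.122 in the authors' deposited table). Amelx-205, at 91.1 in maturation and 164 in the cervical loop, did not pass either (1.81-fold lower, FDR = 0.922 in the authors' deposited table). In this comparison 25.1% of all transcripts passed, 14.4% as lower and 10.7% as higher, beside 2 of the 4 of Amelx.

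The shares of the transcripts stood apart between these stages as well, but the test of make-up did not pass (p = 0.00738, FDR = 0.136 in the authors' deposited table, where 2.79% of genes passed). Amelx-205 made up 41.6% in maturation and 15.2% in cervical loop cells. Amelx-202 made up 2.79% in maturation and 17.2% in cervical loop cells, and Amelx-203 54.8% in maturation and 66.0% in cervical loop cells. A larger absolute difference in share than the 26.4 points of Amelx-205 was held by 0.449% of 5569 transcripts. Neighbours of Amelx in the rank of this test, Scamp3, Nrxn2, Pds5b and AABR07068272.1, had FDR between 0.132 and 0.14 in the authors' deposited table.

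All 4 transcripts were higher in secretory than in cervical loop cells, and the test of make-up did not pass. Amelx-205 was 11.8-fold (FDR = 0.000138), Amelx-203 23.9-fold (FDR = 0.000217), Amelx-202 6.68-fold (FDR = 0.00041) and Amelx-204 2.24-fold (FDR = 0.000138) higher in secretory cells, by the authors' deposited table. The cervical loop means behind these folds add up to 2579, against a gene-level mean of 1152. From the deposited totals, described further on, the folds ran from 20.6 (Amelx-202) to 56.2 (Amelx-204). The size of the deposited folds is therefore not relied on here. Of all transcripts 16% passed in this comparison, 7.63% as higher and 8.41% as lower. The make-up test gave p = 0.939 and an FDR of 1 in the authors' deposited table, and 1.19% of genes passed it. Cttn, Thumpd2, LOC362863 and Park7 ranked next to Amelx there, with FDR of 0.998 or more.

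The folds of this table rest on cervical loop means that are not those of the other table. For the cervical loop, the table beside secretory cells gives 560 for Amelx-202, 1090 for Amelx-203, 391 for Amelx-204 and 538 for Amelx-205. The table beside maturation gives 186, 712, 17.4 and 164 for the same 4 transcripts and the same stage. The first is above the second by 374, 378, 374 and 374, the same amount for each transcript within the rounding to 3 significant digits (at most 5.5 either way). The secretory means were lower in this table by a common amount too: Amelx-204 stood at 877 beside cervical loop cells and at 952 beside maturation cells, a shift of -75.

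The same held beyond Amelx. Of 2643 genes whose cervical loop means differed between the tables by more than rounding, all 2643 had 1 common shift for their transcripts within rounding, as did 2787 of 2787 for the secretory stage. The shift moved a cervical loop mean by more than 1.5-fold in 1.44% of 7071 transcripts with a mean over 1 in both tables. Maturation means were identical in both of their tables.

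**Figure D4:**
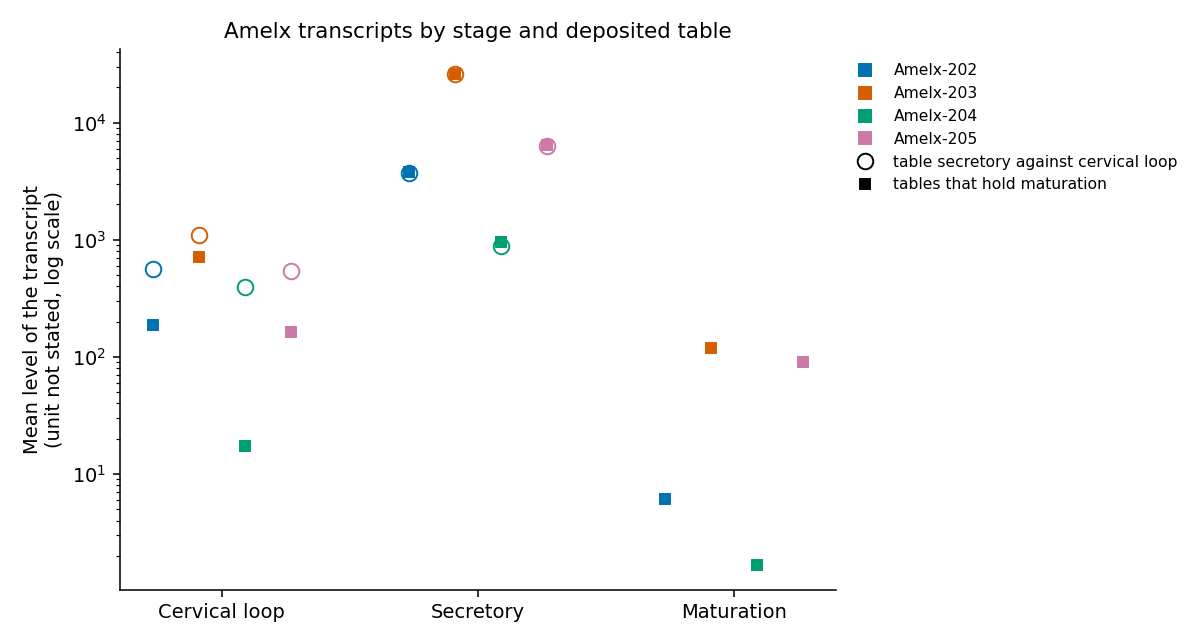
Mean level of each Amelx transcript by stage on a log axis (unit not stated), from the table of secretory against cervical loop cells (open circles) and from the tables that hold the maturation stage (filled squares). In the cervical loop the circle of Amelx-204 stands at 391 and its square at 17.4, while in the secretory stage circles and squares nearly coincide.

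The deposited totals give a further reading of the cervical loop level. With 4 cervical loop, 4 secretory and 5 maturation libraries, numbers inferred from the totals, the arithmetic means in the cervical loop were 186 for Amelx-202, 710 for Amelx-203, 16.9 for Amelx-204 and 164 for Amelx-205. These lie at the values of the table beside maturation. The 4 transcripts together come to 1076 from the totals and 1079 in the table beside maturation, but to 2579 in the table beside secretory cells, against a gene-level mean of 1152.

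From the totals, Amelx-204 was 56.2-fold, Amelx-205 39.0-fold, Amelx-203 36.4-fold and Amelx-202 20.6-fold higher in secretory than in cervical loop cells. The order of the transcripts by fold is thus not the same in both readings: Amelx-204 had the lowest fold of the deposited ratios and the highest from the totals. The deposited p-values were smallest for Amelx-205 and Amelx-204 (1.40e-06 and 1.41e-06) and largest for Amelx-202 (7.09e-06) in the authors' deposited table. Every transcript was higher in secretory cells in both readings.

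As shares of the summed transcript means in secretory cells, Amelx-203 made up 70.3%, Amelx-205 17.2%, Amelx-202 10.2% and Amelx-204 2.38% in the table of this comparison. In cervical loop cells the same transcripts made up 42.3%, 20.9%, 21.7% and 15.2% there, but 66.0%, 15.2%, 17.2% and 1.61% in the table beside maturation. By the values beside maturation the largest difference was that of Amelx-202, 6.98 points lower in secretory cells (-6.98 points), and 11.1% of 5665 transcripts had a larger absolute difference. The sign of the difference in share, secretory minus cervical loop, turned between the readings for Amelx-204 (-12.8 points in the table of this comparison and 0.950 beside maturation) and for Amelx-205 (-3.70 and 2.03 points). It held for Amelx-203 (28.0 and 4.00 points) and for Amelx-202 (-11.6 and -6.98 points).

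**Figure D5:**
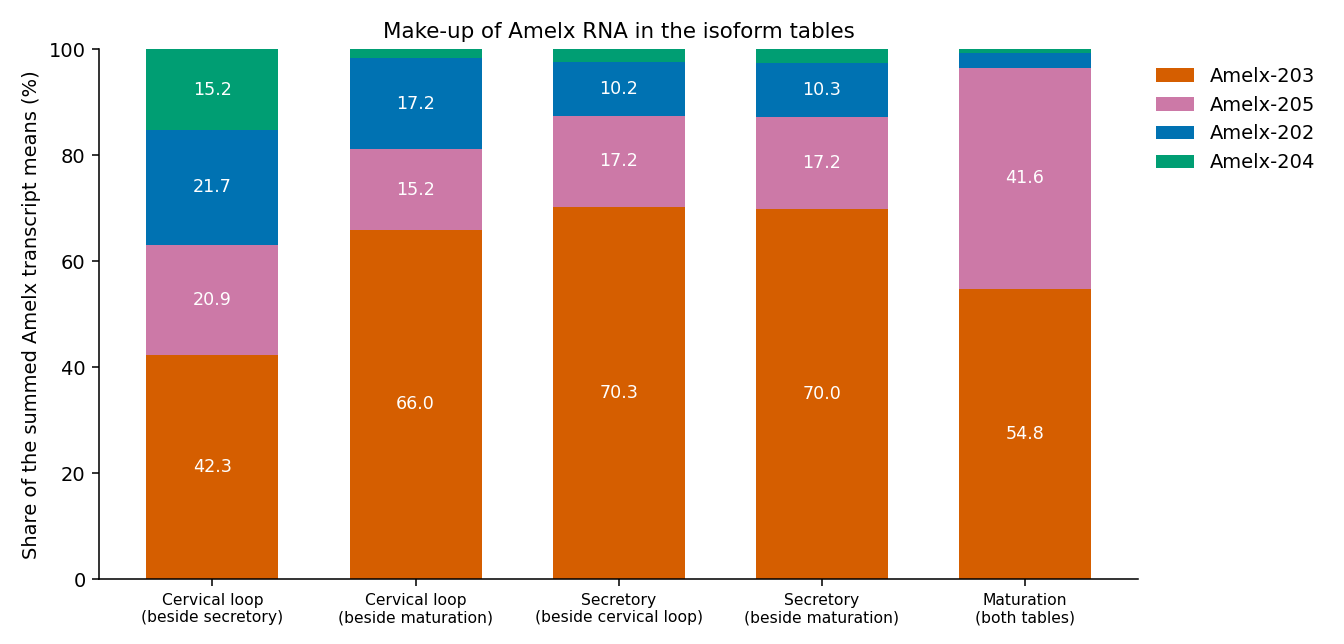
Share of each transcript in the summed Amelx transcript means, in percent, for the cervical loop and secretory stages from both tables that hold them and for maturation, where both tables give the same values. Amelx-205 takes 41.6% in maturation and between 15.2% and 20.9% in the other bars.

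Amelx lies within the span of Arhgap6, which encodes a GTPase-activating protein, on the opposite strand in the RefSeq annotation of GRCr8. Whether reads were counted by strand is not given in the sources used here, and reads of both genes may not have been told apart where they overlap. Arhgap6 had means of 3.02, 8.87 and 12.2 in the cervical loop, secretory and maturation stages. It was 2.94-fold higher in secretory than in cervical loop cells (FDR = 0.00172) and did not pass between maturation and secretory cells (FDR = 0.0595) in the authors' deposited table. Both genes thus passed as higher in secretory than in cervical loop cells. In maturation the mean of Arhgap6 was highest and that of Amelx lowest, but Amelx did not pass there against the cervical loop. Whether reads of either gene were counted for the other was not tested.

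None of the other 4 X-linked genes listed as near Amelx changed by as much as Amelx in any comparison. Only Mid1 among them had its highest mean in secretory cells, and it did not pass in maturation against secretory cells (FDR = 0.5 in the authors' deposited table). Hccs, a heme lyase of mitochondria, had 10.4, 9.21 and 11.1 across the cervical loop, secretory and maturation stages. Msl3, of a chromatin complex, had 29.4, 21.6 and 23.5, Mid1, a ubiquitin ligase on microtubules, 48.9, 75.4 and 70.3, and Frmpd4 1.04, 0.190 and 3.06 in the same order. Mid1 was 1.54-fold higher (FDR = 0.013), Msl3 1.36-fold lower (FDR = 0.00448) and Frmpd4 5.48-fold lower (FDR = 0.0199) in secretory than in cervical loop cells in the authors' deposited table. Maturation cells held 16.1-fold more Frmpd4 and 1.20-fold more Hccs than secretory cells in the authors' deposited table (FDR = 0.00315 and 0.0217).

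Of 14 genes of the enamel matrix and its processing, Amelx included, 11 were higher, 0 lower and 3 did not pass in secretory against cervical loop cells, with a median log2 ratio of 2.67, beside 41.8% of all genes called and an all-gene median of -0.14. Ambn was 46.7-fold and Enam 32.1-fold higher in the authors' deposited table, and the smallest folds that passed were those of Tuft1 (1.72-fold) and Fam83h (1.75-fold). In maturation against secretory cells 6 were higher and 8 lower (42.9% of all genes passed), and of the 13 with a ratio Amelx had the lowest, followed by Enam and Acp4 (in the authors' deposited table, lower by 168-fold and 40.3-fold). Dspp, of dentin, also passed as lower (FDR = 0.0467 in the authors' deposited table), with means of 0.0701 in maturation and 22.2 in secretory cells, and has no ratio here because the first lies under the floor of 0.1. Odam, a protein of the maturation-stage surface layer, was higher there by 24.9-fold in the authors' deposited table. In maturation against cervical loop cells 7 were higher, 1 lower and 6, Amelx and Enam among them, did not pass, where 57.8% of all genes passed. Ambn was 4.02-fold higher in that comparison (FDR = 0.0121 in the authors' deposited table), where Amelx and Enam had means below those of the cervical loop that did not pass.

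Of 25 transcription factors tied to amelogenin expression or to ameloblast differentiation in rodents, 24 were measured. In secretory against cervical loop cells 3 were higher, 8 lower and 13 did not pass, near the 41.8% of all genes, with a median log2 ratio of -0.15. Satb1, an organiser of chromatin, was 2.38-fold, Foxo1 1.92-fold and Dlx2 1.91-fold higher in the authors' deposited table. Satb1 had means of 114, 272 and 26.4 in the cervical loop, secretory and maturation stages, and so was highest in the stage in which Amelx was. Ascl5, a factor of early dental epithelium also called AmeloD, was 140-fold, Dlx5 3.31-fold and Msx1 2.28-fold lower in the authors' deposited table, and Ascl5 had a mean of 0.138 in secretory cells.

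In maturation against secretory cells 8 of the 24 factors were higher, 7 lower and 9 did not pass, where 42.9% of all genes passed. Satb1 was 10.3-fold lower (FDR = 0.000269) and Sp6, which mice need to form ameloblasts, 4.89-fold lower (FDR = 0.000752) in the authors' deposited table. Sp6 had 253, 286 and 58.4 across the cervical loop, secretory and maturation stages. Cebpb was 2.39-fold and Cebpd 2.35-fold higher and Dlx5 2.52-fold lower in the authors' deposited table. Cebpa, which encodes the factor known from the mouse amelogenin promoter, had 3.36, 3.47 and 6.27 in the stages. It did not pass in secretory against cervical loop cells (FDR = 0.848) and was higher in maturation than in secretory cells (FDR = 0.019) in the authors' deposited table. Msx2, a repressor of the amelogenin gene in mouse, had 79.4, 96.1 and 68.2. In maturation against cervical loop cells 8 of the factors were higher, 10 lower and 6 did not pass, where 57.8% of all genes passed.

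Of the NF-Y subunit genes, Nfya had 34.5, 21.0 and 16.7 and Nfyc 28.8, 20.8 and 17.8 across the cervical loop, secretory and maturation stages. Both passed as lower in secretory than in cervical loop cells in the authors' deposited table (FDR = 0.00133 and 0.00391). Nfyb had 17.8, 18.8 and 25.6 and did not pass in that comparison (FDR = 0.622 in the authors' deposited table). The RNA levels of these genes were not highest in the stage where Amelx was highest, and a link between them and Amelx was not tested.

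Of 23 genes of SR proteins and other splicing factors, 2 were higher, 9 lower and 12 did not pass in maturation against secretory cells, the comparison in which the make-up of Amelx RNA changed. The median log2 ratio of the list was -0.33, beside 0.01 over all genes, and 42.9% of all genes passed. Mbnl1, which binds RNA to steer exon choice, had means of 45.8, 28.2 and 113 in the cervical loop, secretory and maturation stages and was higher by 4.01-fold in maturation against secretory cells (FDR = 0.00037 in the authors' deposited table). Mbnl2 was higher by 1.49-fold in the authors' deposited table. Srsf12 was lower by 2.71-fold, Esrp2, a splicing factor of epithelial cells, by 1.93-fold and Srsf6 by 1.82-fold in the authors' deposited table. In secretory against cervical loop cells 3 of the 23 were higher, 14 lower and 6 did not pass, where 41.8% of all genes passed. In maturation against cervical loop cells 2 were higher, 16 lower and 5 did not pass, where 57.8% passed. No test of a link between these genes and the make-up of Amelx was made.

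Of 7 genes whose products are reported to bind or take up amelogenin, 4 were higher, 0 lower and 3 did not pass in maturation against secretory cells, where 21.8% of all genes passed as higher. Krt14, an epithelial keratin, had means of 295, 542 and 1691 in the cervical loop, secretory and maturation stages, and Lamp1, of lysosome membranes, had 104, 129 and 250. Cd63, also of late endosomes and lysosomes, was 1.86-fold and the receptor gene Lrp1 1.69-fold higher in maturation, by the authors' deposited table. Hspa5, Anxa2 and Cltc did not pass in that comparison (FDR = 0.241, 0.569 and 0.859 in the authors' deposited table), and passed as higher in secretory against cervical loop cells (by 1.32-fold, 1.25-fold and 1.46-fold, per the authors' deposited table). In all, 5 were higher and 1 lower in secretory against cervical loop cells (16.5% of all genes higher), and 6 higher and 0 lower in maturation against cervical loop cells (24.1% higher).

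The populations were set beside markers of their own and of other cells, where 41.8% of all genes passed in secretory against cervical loop, 42.9% in maturation against secretory and 57.8% in maturation against cervical loop cells. Of 8 cervical loop markers, 6 were lower in secretory and 7 lower in maturation than in cervical loop cells. All 6 maturation markers were higher in maturation than in secretory and than in cervical loop cells. All 3 secretory markers, Ambn, Enam and Mmp20, had their highest mean in secretory cells. Odontoblast and bone markers were 0 of 6 higher or lower in secretory against cervical loop cells, with summed means of 1557, 1263 and 1763 in the cervical loop, secretory and maturation stages. Sparc, which many mesenchymal cells express, held most of these sums (1205, 1128 and 1646). The median log2 ratio of the list was -1.26 in secretory and, over 5 genes with a ratio, -1.54 in maturation, each against the cervical loop. In maturation against cervical loop cells 1 of these markers, Sparc, passed as higher and 2, Dspp and Phex, as lower. Dspp had 81.7, 22.2 and 0.0701, Bglap 117, 42.1 and 32.4, Dmp1 58.9, 31.3 and 20.2 and Phex 23.1, 9.61 and 1.97 across the stages. Mesenchyme markers added up to 9708, 10308 and 13856, and myeloid markers to 210, 176 and 640 across the stages. The 3 stratum intermedium markers added up to 255, 414 and 569, with 1 higher and 1 lower in maturation than in cervical loop cells. Of 4 endothelium markers 3 were measured, with sums of 69.6, 96.0 and 156, and all 3 were higher in maturation than in cervical loop cells. Of 5 myeloid markers, 4 were higher in maturation than in secretory cells. Their part in the Amelx values was not tested.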

How the data were processed

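Per the labels, 25000000 reads of 75 bases, single-end, were sequenced for each library with a RIN (a score of RNA quality) of 7 or more, and the cervical loop library of 1 rat fell short and was left out. No counting interval can be given, since counted reads per library are unknown here. The submitters' processing notes name STAR 2.5.3a, Partek and rn6. Annotation, normalisation and model terms: not given in the sources used here. Per the file headers, the authors deposited least-squares means of each stage, a ratio of means, a p-value and an FDR for each pair of stages, and for isoforms a p-value per gene for make-up.

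The authors' FDR equalled Benjamini-Hochberg adjustment of the deposited p-values over all genes, with no difference beyond floating-point error, and over transcripts or genes of the isoform tables to within 0.00347. A gene's direction was read from its means. No fold is given at a mean of 0.1 or less. Deposited p-values rest on the authors' model, so how they weigh the spread between libraries is not known here. For maturation against secretory cells the authors' deposited p-value was 6.54e-05 in the gene test and 1.58e-16 for Amelx-202 in the transcript test. The 2 tests may treat that spread differently, so their p-values cannot be compared with each other. Library numbers of 4, 4 and 5 come from the totals: with them, the total of the secretory and cervical loop table followed from the other tables within 1% for 98.2% of 6510 transcripts. The labels would give 14 libraries and the totals give 13; this was not settled. Arithmetic means are a total less 5 maturation means, divided by 4. Shares are a transcript's mean over the sum for its gene; those of maturation against secretory or cervical loop cells come from the table of that pair. Cervical loop and secretory shares were to be taken first from the table of that pair, and both readings are given.

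Amelx and the gene lists were chosen with earlier results of these data known. Genes named besides Amelx are all members of lists of up to 10 genes, the 3 highest and 3 lowest ratios that passed in longer lists, the 10 genes nearest in pattern, and the genes ranked next to Amelx in the make-up test, of which 1 list gene is not reported here; Cebpa, Msx2, the NF-Y genes, Relt, Sp6 levels and single markers were named after their values were seen. Promoters come from RefSeq tables of GRCr8, a build other than that of the files. Adjustment and the arithmetic of totals were tested on simulated data. Python 3.11.15, pandas 2.3.3 and NumPy 2.4.6 were used.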

Additional observations from a re-analysis of the deposited data

How the results depend on the processing

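The Amelx calls in secretory against cervical loop and maturation against secretory cells held under Benjamini-Yekutieli adjustment and with a filter on low means. In maturation against cervical loop cells Amelx stayed uncalled with that filter. The Benjamini-Yekutieli adjustment is always the stricter one and could not have called it there. The make-up call in maturation against secretory cells held too, with the authors' deposited p-value adjusted by Benjamini-Yekutieli (0.0268) and over all transcripts (0.00244). The gene-level log2 ratio of secretory against cervical loop cells was 5.01 from the gene table and 3.84 (14.3-fold) from the summed transcript means of that pair, which carry the common shift. Under Benjamini-Yekutieli adjustment 2955 genes were called in place of 6896 between secretory and cervical loop cells, 3145 in place of 7089 between maturation and secretory cells, and 5341 in place of 9554 between maturation and cervical loop cells. Genes called for make-up were 9, 24 and 37 in that order, in place of 48, 73 and 113. Cervical loop shares of Amelx-203 and Amelx-204 were 42.3% and 15.2% in the table beside secretory cells, 66.0% and 1.61% in the other table, and 66.0% and 1.57% from the totals, a reading chosen after seeing the data, as were transcript folds from the totals. With 1 added to every mean, the maturation share of Amelx-204 was 1.19%. With a floor of 10, 4 of the 10 nearest genes were shared, and 8 with a pseudocount of 1. Differences in share, secretory minus cervical loop, turned sign for Amelx-204 (-12.8 points in the table of the pair, 0.950 beside maturation, 0.998 from the totals) and Amelx-205 (-3.70, 2.03 and 2.05 points), and shrank for Amelx-203 (28.0, 4.00 and 3.88 points) and Amelx-202 (-11.6, -6.98 and -6.93 points), both alternatives being chosen after seeing the data. All 12 adjusted p-values of Amelx stayed on their side of 0.05, though they moved in size. Those that did not pass at first could not have crossed it under Benjamini-Yekutieli adjustment. Of 92 levels, ratios, shares and counts under an alternative, 4, those just named, turned sign and 27 moved by more than 1.5-fold. Shares divided by transcript length were not run, since no length was at hand. No paired analysis was possible because each stage is deposited as 1 mean, and leaving out a replicate was not possible for the same reason. Counted reads per library are unknown, and the means of Amelx-204 and Amelx-202 in maturation, 1.66 and 6.10, are the least certain for that reason.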
